A study of Mus musculus with 18 samples.

Results

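The neural crest specifier genes described here were chosen by name: Sox10, Sox9, Foxd3, Tfap2a, Tfap2b, Dlx2, Ets1, Pax3 and Snai1, which are 9 of the 31053 mouse genes counted in every library. Each encodes a transcription factor that specifies the neural crest. Whole mouse embryos on the 129S4/SvJae background were dissociated at embryonic day 8.5, and each of 18 libraries holds the cells of 1 embryo, profiled by droplet single-cell RNA sequencing. The groups were 7 wild-type (WT) embryos, 3 Dnmt1 knockout (KO) embryos, 4 Dnmt3a KO embryos and 4 libraries labelled Dnmt3b KO, all without any treatment named in the labels and all from matings of heterozygous parents. The KO alleles came through the germline, and the genotype had been read by PCR from extraembryonic tissue of the same conceptus.

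All 9 are protein-coding genes in GENCODE vM21 on GRCm38. Sox10 (ENSMUSG00000033006) lies at chr15:79154908-79165240 on the minus strand, Sox9 (ENSMUSG00000000567) at chr11:112782224-112787760 on the plus strand and Foxd3 (ENSMUSG00000067261) at chr4:99656299-99658622 on the plus strand. Tfap2a (ENSMUSG00000021359) lies at chr13:40715302-40738376 on the minus strand, Tfap2b (ENSMUSG00000025927) at chr1:19208914-19238576 on the plus strand and Dlx2 (ENSMUSG00000023391) at chr2:71543408-71546754 on the minus strand. Ets1 (ENSMUSG00000032035) lies at chr9:32636221-32757820 on the plus strand, Pax3 (ENSMUSG00000004872) at chr1:78101267-78197134 on the minus strand and Snai1 (ENSMUSG00000042821) at chr2:167538195-167542814 on the plus strand.

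The neural crest arises at the border of the neural plate and the surface ectoderm, where Wnt, BMP and FGF signals act. Border factors such as Pax3 and Tfap2a precede the specifiers Foxd3, Snai1, Sox9 and Sox10, and the cells then lose their epithelial contacts and migrate to give glia, neurons, pigment cells and the skeleton of the face. Dlx2 marks crest cells that enter the pharyngeal arches, Ets1 is used in cranial crest and in endothelium, and Tfap2b is a paralogue of Tfap2a. DNMT1 copies DNA methylation to the new strand at replication, whereas DNMT3A and DNMT3B set methylation de novo.

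Of the 9 members, 5 had an entry in the RefSeq promoter table used here (Foxd3, Tfap2a, Tfap2b, Dlx2 and Snai1). The 250 bases before the start of 3 of them are shown, since Foxd3 and Tfap2b fell furthest in Dnmt1 KO embryos and Tfap2a, the paralogue of Tfap2b, did not pass the test there. Sequences run 5′ to 3′ on the strand of the gene in GRCm38.p6, and capitals mark the CpG dinucleotides that these enzymes methylate.
Foxd3, chr4:99656049-99656298, plus strand: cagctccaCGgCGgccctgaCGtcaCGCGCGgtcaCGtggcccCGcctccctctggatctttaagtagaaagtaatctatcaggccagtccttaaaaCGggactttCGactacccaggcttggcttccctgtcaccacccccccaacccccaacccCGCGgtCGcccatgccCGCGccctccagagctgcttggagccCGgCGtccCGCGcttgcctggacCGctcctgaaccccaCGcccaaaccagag
Tfap2b, chr1:19211804-19212053, plus strand: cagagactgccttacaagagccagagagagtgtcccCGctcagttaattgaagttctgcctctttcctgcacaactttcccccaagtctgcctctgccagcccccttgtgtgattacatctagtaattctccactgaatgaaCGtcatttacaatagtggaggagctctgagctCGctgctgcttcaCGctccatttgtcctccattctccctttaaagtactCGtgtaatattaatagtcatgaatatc
Tfap2a, chr13:40734921-40735170, minus strand: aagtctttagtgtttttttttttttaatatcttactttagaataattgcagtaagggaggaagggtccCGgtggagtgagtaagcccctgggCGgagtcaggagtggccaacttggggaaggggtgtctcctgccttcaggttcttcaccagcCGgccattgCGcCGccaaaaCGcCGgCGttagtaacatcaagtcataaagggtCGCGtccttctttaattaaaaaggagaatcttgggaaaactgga
The windows of Tfap2b and Tfap2a lie within the annotated spans of their genes, which have further transcript starts upstream, and that of Foxd3 ends next to the first base of its gene. The window of Foxd3 holds 21 CpG and that of Tfap2b holds 5, against a median of 6 over 32841 RefSeq promoters of the same length, and the window of Tfap2a holds 10. The windows of Dlx2 and Snai1 hold 24 and 27 CpG. A second window of Tfap2a, not shown, holds 10 CpG as well. The window of Foxd3 is above the median and that of Tfap2b below it, and a link of CpG counts to the fall was not tested. The letters GCCNNNGGC, to which AP-2 proteins such as those of Tfap2a and Tfap2b can bind, occur on either strand in 13.7% of the promoters and among the members' windows in that of Snai1, and the same holds for CACCTG, a sequence that Snail proteins can bind, which 17.2% of the promoters hold. These matches are letters in a window, and neither binding nor methylation was measured.

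The libraries gave between 1366 and 12716 kept cells and between 36444262 and 229288103 unique molecular identifiers (UMIs, which count RNA molecules once) in those cells. Of these UMIs 4.50%, 4.29% and 4.12% were mitochondrial in Dnmt1 KO 1, 2 and 3, against 2.76% to 3.28% in WT embryos. Dnmt3a KO 14 had 4.58%. The part of this in the results was not tested. Dnmt1 was at 14.8 to 15.6 UMIs of the gene per 1000000 UMIs (CPM) in the 3 Dnmt1 KO embryos and at 83.1 to 115.1 CPM in WT embryos, and Dnmt3a was at 7.34 to 11.8 CPM in Dnmt3a KO embryos against 23.1 to 34.9 CPM in WT embryos. Dnmt3b RNA was at 54.0 to 68.6 CPM in the libraries labelled Dnmt3b KO and at 35.5 to 87.2 CPM in WT embryos, and so did not separate these groups. Furthermore, Dnmt3a was at 14.97 CPM in the library labelled Dnmt3b KO 11 and at 7.53 CPM in the library labelled Dnmt3b KO 12, against 31.5 and 31.8 CPM in libraries 1 and 2 of that group. These RNA levels do not settle whether the libraries 11 and 12 carry the labelled knockout, since the Dnmt3a level of the library 12 lies within the range of the Dnmt3a KO embryos and that of the library 11 between them and WT. The group is therefore called by its label, and its main results are also given without these libraries. The libraries 1 and 2 of this group shared 12249 cell barcodes, whereas the next of 153 pairs of libraries shared 133. Of 7568 barcodes kept in both, 95.85% fell in the same cell class in both libraries, against 10.1% for random pairing. Both libraries were counted as 1 sample, which leaves 3 samples in the group. By their Y-linked genes WT 2, all Dnmt1 and Dnmt3a KO embryos and the libraries labelled Dnmt3b KO 1, 2 and 11 are male, and the other embryos are female. The developmental stage of the embryos was not estimated here, and its part in the results was not tested. The paper, which added published CRISPR embryos, staged embryos by their cell type proportions. It reports a minor developmental delay of Dnmt1 KO embryos, whereas most embryos of the other groups matched later reference stages.

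The first question was where the members are expressed in WT embryos. Cells were grouped into classes without using the 9 members, and a class was called X-like from markers that are not members. The neural crest-like class was 1 cluster in which 10 of 10 markers were seen (among them Erbb3, Ednrb and Ngfr), and it held 483 of 34421 WT cells. Foxd3, Sox9, Sox10 and Tfap2b were its leading genes although they had not been used to find it. For 8 of the 9 members the neural crest-like class had the highest mean level among 17 classes with at least 25 cells in 3 or more WT embryos, and the exception was Snai1. For Dlx2 this rests on 2 of the 6 embryos.

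Sox10, which directs glial and pigment cell fates, was at 70.9 ± 37.8 CPM (SD, n = 6 embryos) in neural crest-like cells and at 1.27 ± 0.61 CPM (n = 7) in the next class, the surface ectoderm-like cells. Foxd3, which keeps crest cells multipotent, was at 184.4 ± 82.5 CPM in neural crest-like cells and at 10.3 ± 6.35 CPM in hindbrain or spinal cord neuroepithelium-like cells. Tfap2b was at 84.7 ± 32.5 CPM and at 12.9 ± 9.70 CPM in surface ectoderm-like cells. For these 3 genes every WT embryo was higher in the neural crest-like class than any WT embryo in the next class, whereas the classes below that overlapped their neighbours.

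The other members were shared with a second class. Tfap2a was at 98.7 ± 21.6 CPM in neural crest-like and at 79.2 ± 14.1 CPM in surface ectoderm-like cells, with overlapping embryos, and both stood above the forebrain or midbrain neuroepithelium-like cells at 10.1 ± 3.79 CPM. Dlx2 was at 14.5 ± 15.9 CPM in neural crest-like and at 6.55 ± 3.49 CPM in surface ectoderm-like cells, again with overlap. Its neural crest-like mean rests on WT 1 and WT 2, at 42.2 and 25.5 CPM, whereas WT 3, 4, 6 and 7 had 3.91 to 6.91 CPM, and it was 8.98 ± 9.31 CPM without WT 1. Ets1 was at 134.6 ± 32.8 CPM in neural crest-like and at 110.7 ± 18.0 CPM in endothelium-like cells, which overlapped each other and stood above extraembryonic mesoderm-like cells at 32.9 ± 6.89 CPM.

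Pax3, which also acts in the dorsal neural tube and in muscle precursors, was at 138.3 ± 34.0 CPM in neural crest-like cells, at 74.3 ± 9.94 CPM in somitic mesoderm-like cells and at 73.8 ± 15.8 CPM in hindbrain or spinal cord neuroepithelium-like cells, and each of these overlapped the next. Sox9, which also drives cartilage formation, was at 484.0 ± 224.5 CPM in neural crest-like cells and at 124.6 ± 29.4 CPM in head mesenchyme-like cells, with overlap because WT 1 had 148.4 CPM in its neural crest-like cells. Snai1, a repressor of epithelial adhesion genes, was at 142.5 ± 23.3 CPM in allantois-like cells, above every embryo of the next class. The neural crest-like cells followed at 57.7 ± 24.97 CPM and overlapped the head mesenchyme-like cells at 51.8 ± 11.3 CPM and the presomitic mesoderm-like cells at 49.2 ± 12.1 CPM.

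**Figure D1:**
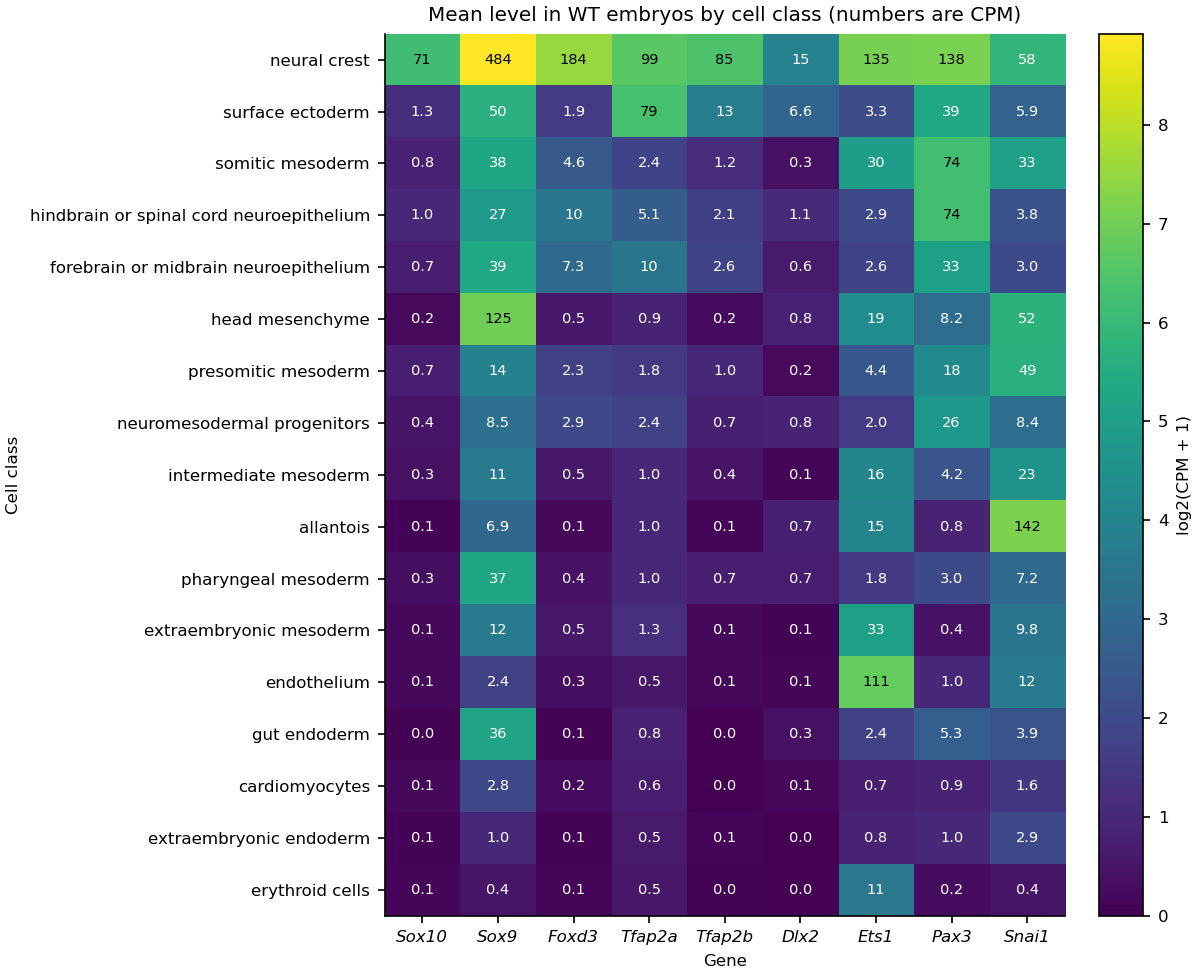
Mean level of the 9 members (columns) in the 17 cell classes (rows) of WT embryos, as CPM in each cell of the grid and as log2(CPM + 1) in colour. The neural crest class is the highest row for 8 members, and Snai1 is highest in the allantois class at 142.5 CPM.

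These levels weigh each class alike, and the share of a gene's UMIs also depends on how many cells a class has. In WT embryos the neural crest-like class held a mean of 70.0% of the Sox10 UMIs (SD 10.9, n = 7), 59.5% of the Foxd3 UMIs (SD 15.8) and 54.9% of the Tfap2b UMIs (SD 6.92). It held less of the others, at 29.8% for Sox9, 21.7% for Tfap2a, 20.8% for Dlx2, 16.5% for Ets1 and 12.3% for Pax3. Most Tfap2a came from elsewhere, with 47.5% of its UMIs in surface ectoderm-like cells, and 30.4% of the Pax3 UMIs were in hindbrain or spinal cord neuroepithelium-like cells. For Ets1 the endothelium-like cells held 26.8% and for Snai1 the allantois-like cells held 23.6%.

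By the Pearson correlation of log2(CPM + 1) over the 17 WT classes, which describes 17 classes of the same embryos, the 3 genes most like each member among 8123 compared (8124 for Dlx2) were often members themselves. Tfap2b and Foxd3 were the second and the third for Sox10 (r = 0.92 and 0.913), after the noncoding gene Gm12688 (0.987), which lies upstream of Foxd3 on the opposite strand. Foxd3 had Gm12688 (0.922) and Sox10 among its 3, and Tfap2a had Tfap2b (0.957), Dlx6 (0.955) and Pax7 (0.948). Tfap2b had Tfap2a, Sox10 and Pax7 (0.918), and Dlx2 had Tfap2b, Tfap2a (0.926) and Tfap2c (0.904). Sox9, Ets1, Pax3 and Snai1 had no member among their 3. Lmo4 (0.878), Fam208b (0.871) and Nubpl (0.861) came first for Sox9. For Ets1 they were Utp11 (0.864), Rhoj (0.783) and Exosc10 (0.777), for Pax3 they included Ptprz1 (0.913) and Dab1 (0.891), and for Snai1 Tmem119 (0.842), Col9a1 (0.839) and Twist1 (0.816).

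The second question was which members change over the whole embryo when Dnmt1 is lost. In Dnmt1 KO embryos 6 of the 9 members fell (edgeR quasi-likelihood test, Benjamini-Hochberg adjusted p under 1% and log2 fold change of at least 1) and none rose, against 6.22% of 18563 genes that fell by the same rule and 8.11% that rose. The 6 were Foxd3, Tfap2b, Sox10, Pax3, Sox9 and Snai1. The median log2 fold change was -1.74 over the 9 members and 0.01 over all genes tested.

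Foxd3 gave 4 UMIs in each of the 3 Dnmt1 KO embryos, which is 0.0384, 0.0305 and 0.0517 CPM, whereas WT embryos had 2.48 CPM at the lowest, 5.42 at the median and 7.93 at the highest. Sox10 likewise gave 4 UMIs in each Dnmt1 KO embryo, and WT embryos ranged from 0.826 CPM over a median of 1.71 to 3.02 CPM. Tfap2b gave 2, 0 and 2 UMIs, against 1.89, 2.91 and 4.73 CPM at the lowest, median and highest WT embryo. The groups did not overlap for any of the 3, and the 3 transcripts were nearly undetected in Dnmt1 KO embryos. The mean WT level was 137.3 times the mean Dnmt1 KO level for Foxd3, 41.9 times for Sox10 and 192.9 times for Tfap2b, whose total of 4 UMIs has an exact Poisson 95% interval of 1.09 to 10.2 that covers counting error only. The fitted log2 fold changes were -7.04 (SE 0.69, adjusted p = 7.6e-07) for Foxd3, -5.38 (SE 0.79, adjusted p = 4.9e-05) for Sox10 and -7.67 (SE 0.78, adjusted p = 1.1e-06) for Tfap2b, and at such counts they depend on the prior count of the fit.

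The other 3 that fell kept a clear signal. Pax3 was at 4.32, 2.03 and 6.42 CPM in the Dnmt1 KO embryos against 14.8, 18.6 and 24.1 CPM at the lowest, median and highest WT embryo. The groups did not overlap, and Pax3 fell by 2.16 log2 units (SE 0.31, adjusted p = 4.0e-05). Sox9 was at 7.27, 4.15 and 12.6 CPM against 16.3, 29.0 and 36.7 CPM, also without overlap, and fell by 1.74 log2 units (SE 0.31, adjusted p = 0.00032). Snai1 was at 5.66, 6.53 and 9.99 CPM against 14.2, 16.2 and 19.7 CPM. It fell by 1.09 (SE 0.18, adjusted p = 0.00017), close to the limit of 1, and it missed that limit at -0.90 without Dnmt1 KO 1 and at -0.99 without WT 2.

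The other 3 members did not pass. Dlx2 was at 0.355, 0.152 and 0.3105 CPM against 0.509, 0.823 and 1.77 CPM in WT embryos, with no overlap and a log2 difference of -1.73 (SE 0.50, adjusted p = 0.012). Ets1 was at 9.62, 7.43 and 8.40 CPM against 11.2, 13.9 and 17.85 CPM, also with no overlap, and its log2 fold change of -0.71 (SE 0.15, adjusted p = 0.0016) missed the limit of 1. Tfap2a was at 6.05, 2.49 and 6.91 CPM against 5.89, 8.86 and 10.9 CPM, so that 2 of the 3 Dnmt1 KO embryos lay within the WT range (log2 fold change -0.63, SE 0.28, adjusted p = 0.091). Thus 8 of 9 members had every Dnmt1 KO embryo below every WT embryo, against 16.2% of all genes tested. With a term for male embryos 7 members were called, since Ets1 then had -1.01. DESeq2 called 7 with Dlx2 (adjusted p = 0.00075), and edgeR called Dlx2 too without Dnmt3a KO 2, without WT 3 and over every barcode with at least 1500 UMIs, in 4 of 29 alternatives.

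**Figure D2:**
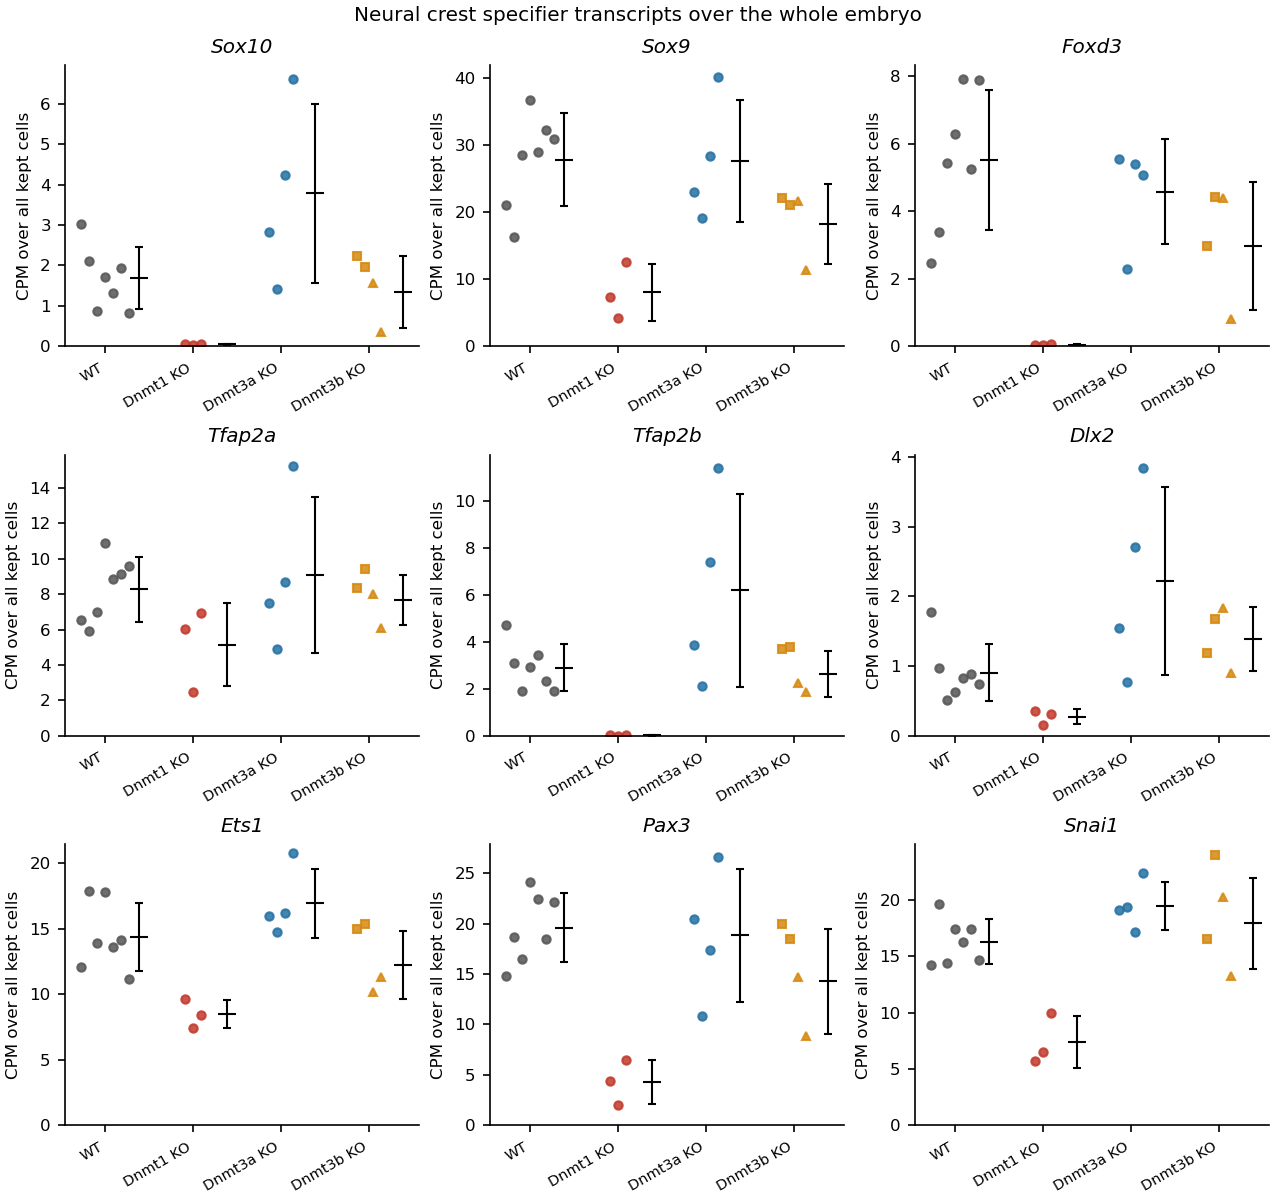
CPM over all kept cells of an embryo (vertical axes) for each of the 9 members in the 4 groups, with 1 point per library and the mean and SD beside each group. Squares are the libraries labelled Dnmt3b KO 1 and 2, averaged as 1 sample, and triangles are the libraries labelled Dnmt3b KO 11 and 12. The 3 Dnmt1 KO embryos lie near 0 for Sox10, Foxd3 and Tfap2b, and Tfap2a overlaps WT.

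A level over the whole embryo joins the share of cells of a class with the RNA per cell, so both were examined. No cell of the 3 Dnmt1 KO embryos was placed in the neural crest-like class, of 1464, 3054 and 2550 kept cells. If every cell was placed rightly, counting alone allows a share of up to 0.205%, 0.0982% and 0.118%. WT embryos had 1.39 ± 0.52% (SD, n = 7) and at the lowest 0.459%. The difference reached the smallest p that an exact permutation test of 3 against 7 embryos allows (two-sided p = 0.0083, 0.0103 adjusted over 21 classes). Of these 21 classes 61.9% were lower in Dnmt1 KO embryos by that test, so the neural crest-like class was not particular in this. That share depends on the clustering. The endothelium-like class was among the lower ones, and it gained Dnmt1 KO cells at resolution 1, as given below. The surface ectoderm-like class, which in WT embryos held 47.5% of the Tfap2a and 34.4% of the Dlx2 UMIs, had 1 cell in the 3 Dnmt1 KO embryos together, and both neuroepithelium-like classes had 0. Cells without a class name made up 29.1 ± 24.5% of Dnmt1 KO and 20.8 ± 8.53% of WT embryos, and up to 57.2% in Dnmt1 KO 3. All groups were clustered together, and some clusters were almost wholly Dnmt1 KO, such as the epiblast-like one at 97.7%. A crest cell of these embryos could therefore have been placed elsewhere. The paper mapped cells to an atlas, with published CRISPR embryos added. It reports neural crest in Dnmt1 KO embryos as underrepresented, with differentially expressed genes within it.

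The UMIs of Sox10, Foxd3, Tfap2b and Dlx2 were also counted per cell without classes. The Dnmt1 KO embryos had 12, 12, 4 and 81 UMIs of these genes in all, so few cells could hold several of them, and the count below describes the same UMIs as the whole-embryo levels. Cells were thinned to 3000 UMIs each, and those with a UMI of 2 or more of the 4 genes were counted. There were 0 such cells among 1400, 2839 and 1805 in the Dnmt1 KO embryos, which allows up to 0.214%, 0.106% and 0.166%, and 1024 shallower cells were left out. WT embryos had 111 among 30090, a mean of 0.385 ± 0.146% of cells (n = 7, 4331 left out). The lowest WT embryo, WT 3, had 0.203%, which is under the limit for Dnmt1 KO 1. Without thinning there was 1 such cell in Dnmt1 KO and there were 707 in WT embryos. In WT embryos 78.4% of the thinned cells that met the rule lay in the neural crest-like class, of which 18.1% met it, and 0 of 4483 erythroid-like cells met it, which allows 0.0669% of background.

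**Figure D3:**
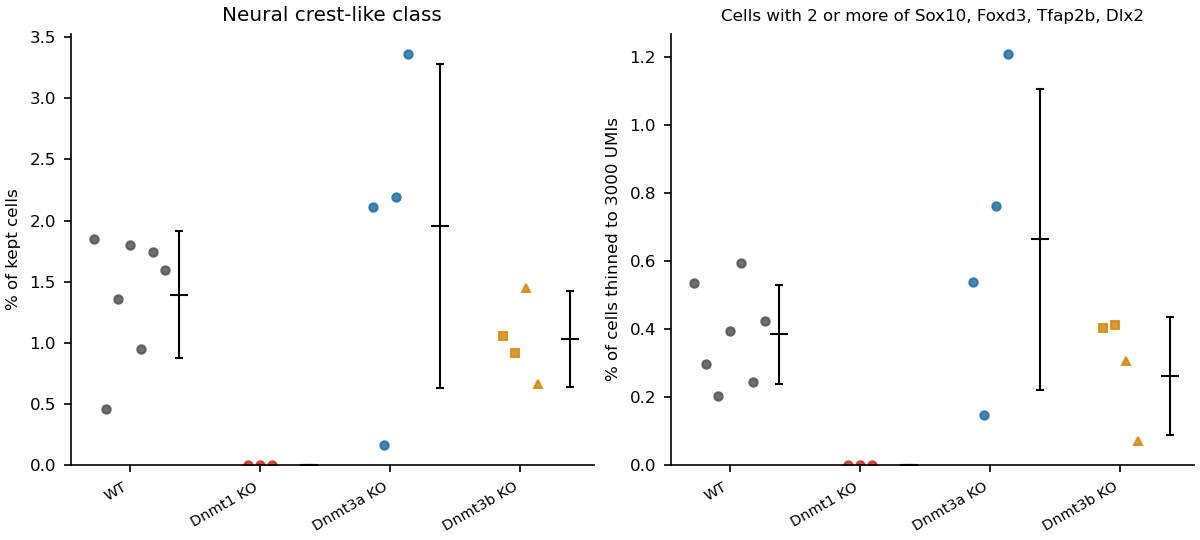
Share of neural crest-like cells among kept cells (left) and of cells with UMIs of 2 or more of Sox10, Foxd3, Tfap2b and Dlx2 after thinning to 3000 UMIs (right), in percent, with 1 point per library and the mean and SD beside each group. Both shares are 0 in the 3 Dnmt1 KO embryos, and Dnmt3a KO 2 has the lowest share of neural crest-like cells outside them at 0.165%.

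What was left of the members in Dnmt1 KO embryos sat in other cells. Tfap2a had 78.7% of its UMIs (SD 12.1, n = 3) in epiblast-like cells, at 26.8 ± 6.54 CPM. This class, with the markers Pou5f1, Utf1, Slc7a3, Fgf5, Pim2 and Nanog, was 1 cluster of which 97.7% of the clustered cells came from Dnmt1 KO embryos, so no level in WT embryos was set against it, and its name cannot be told apart from the genotype. Its Pou5f1 was at 152 CPM, and outside it Dnmt1 KO embryos had 8.97 to 11.5 CPM in extraembryonic mesoderm-like cells, where WT embryos had 0.232 to 3.84 CPM. Slc7a3 was at 36.4 CPM in the class and at 11.7 to 11.8 CPM in erythroid-like cells of Dnmt1 KO embryos, against 0.596 to 1.61 CPM in those of WT embryos, so that some of the markers were higher in Dnmt1 KO cells of other classes too. Not every marker was. In extraembryonic endoderm-like cells mean Utf1 was 1.78 CPM in Dnmt1 KO and 3.46 CPM in WT embryos, with overlapping ranges. In extraembryonic mesoderm-like cells mean Fgf5 was 0.112 CPM in Dnmt1 KO and 0.121 CPM in WT embryos. However, most extraembryonic mesoderm-like and erythroid-like cells of Dnmt1 KO and WT embryos lay in different clusters, as given below. The epiblast-like class held 64.1% of the Dlx2 UMIs, 56.8% of the Pax3 UMIs at 15.5 ± 1.49 CPM and 51.7% of the Sox9 UMIs at 27.2 ± 7.20 CPM. Its Sox10, Foxd3 and Tfap2b levels were 0.175, 0.0911 and 0.0808 CPM, from 7, 4 and 4 UMIs in the 3 embryos. In WT embryos Tfap2a, Dlx2, Pax3 and Sox9 had 12.3% to 29.8% of their UMIs in neural crest-like cells.

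Ets1 was placed differently, with 40.9% of its UMIs in extraembryonic mesoderm-like cells and 27.4% in immune-like cells of the Dnmt1 KO embryos. Its level in the immune-like class was 67.3, 86.3 and 49.8 CPM in these embryos. This class was 1 cluster that had Kdr, an endothelial gene, among its leading genes beside immune genes such as Lyz2 and Spi1, and Ets1 is also an endothelial gene. In Dnmt1 KO embryos the class changed with the clustering, from 55, 94 and 39 cells to 85, 167 and 86 at resolution 1, where endothelium-like cells went from 3, 2 and 0 to 50, 92 and 37 and erythroid-like cells from 84, 174 and 158 to 7, 11 and 75. In WT 1 the endothelium-like cells numbered 229 and 230. No level in WT embryos was therefore set against the immune-like class. Snai1 was spread over cells without a class name (40.2%), extraembryonic ectoderm-like (22.3%), extraembryonic mesoderm-like (16.3%) and epiblast-like cells (10.9%).

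**Figure D4:**
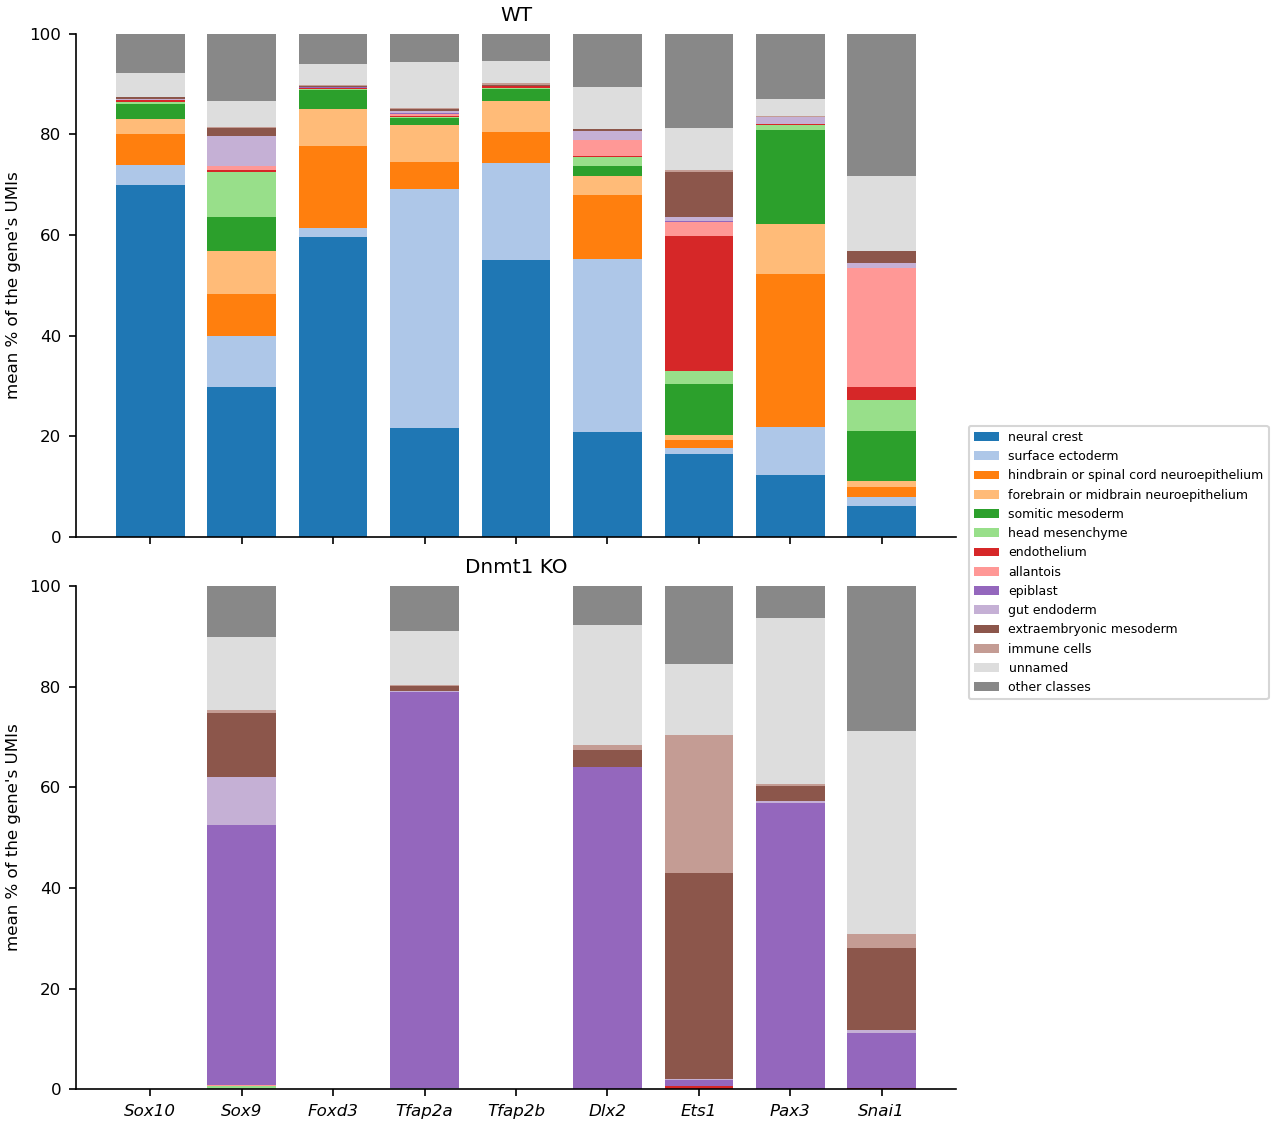
Mean share of each member's UMIs (vertical axes, percent) by cell class in WT (top) and Dnmt1 KO embryos (bottom). Sox10, Foxd3 and Tfap2b have 4 to 12 UMIs in all Dnmt1 KO embryos together and are left out there. The neural crest class leads for Sox10, Foxd3 and Tfap2b in WT embryos, and the epiblast class leads for Tfap2a at 78.7% in Dnmt1 KO embryos.

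Within a class, Dnmt1 KO embryos could be set against WT embryos in 4 classes that each had at least 25 cells in 3 or more embryos of both groups. They were the erythroid-like, extraembryonic endoderm-like, extraembryonic mesoderm-like and gut endoderm-like cells. In 3 of them the groups lay in different clusters of the class. Of the extraembryonic mesoderm-like cells 99.5% in Dnmt1 KO and 2.09% in WT embryos were in 1 cluster led by Tdo2, of the extraembryonic endoderm-like cells 69.4% and 0.589% were in 1 led by Pkd1l2, and of the erythroid-like cells 79.3% and 5.0% were in 1 with Fermt3 and Itga2b among its leading genes. The gut endoderm-like cells shared a cluster, with 97.9% and 66.3%. The comparison thus sets partly unlike cells against each other, and the part of this in its result was not tested. Of 17 pairs of member and class 0 were called by edgeR (9.0% of all pairs of gene and class), 4 passed at an unadjusted p of 0.05 (43.4% of all pairs did), while DESeq2 made 1 call. That call was Pax3 in gut endoderm-like cells, at 0.465, 1.23 and 1.07 CPM from 1, 2 and 2 UMIs in the Dnmt1 KO embryos and at 2.84 to 9.25 CPM in WT embryos (edgeR log2 fold change -2.34, SE 0.64, adjusted p = 0.012). Sox9 in the same cells was at 22.2 to 47.5 CPM in Dnmt1 KO embryos and did not pass (log2 fold change 0.26, SE 0.20, adjusted p = 0.37). Sox10, Foxd3, Tfap2b and Dlx2 were too low for a test in any of the 4 classes.

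The third question was what the loss of the de novo enzymes does. Over the whole embryo 0 of 9 members were called in Dnmt3a KO embryos (0.259% of all genes were) and 0 of 9 in the libraries labelled Dnmt3b KO (1.9% of all genes were). At an unadjusted p under 0.05 there were 3 and 0 members by edgeR, against 9.94% and 17.5% of all genes, and DESeq2 called 0 in both. No member had every Dnmt3a KO embryo above every WT embryo (2.07% of all genes did) or below (0.21%), and none did so in the group labelled Dnmt3b KO (5.44% above and 0.824% below). Of all genes, 0.248% were called higher and 0.0108% lower in Dnmt3a KO embryos, and 1.87% and 0.0269% in the group labelled Dnmt3b KO. Without the libraries labelled Dnmt3b KO 11 and 12, when that group has a single sample that is assumed to vary like the others, 0 members were called as well.

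In Dnmt3a KO embryos the 3 with an unadjusted p under 0.05 were Dlx2, Tfap2b and Sox10. Dlx2 was at 1.54, 0.771, 2.71 and 3.85 CPM in Dnmt3a KO 1, 2, 13 and 14, and the WT embryos had 0.509 to 1.77 CPM. Its log2 fold change was 1.24 (SE 0.38, adjusted p = 0.18). Embryos 13 and 14 were above every WT embryo and the other two lay within the WT range. Tfap2b was at 3.87, 2.12, 7.40 and 11.4 CPM in the same order, with a log2 difference of 1.06 (SE 0.35, adjusted p = 0.25). Sox10 was at 2.83, 1.42, 4.25 and 6.63 CPM, with 1.12 (SE 0.43, adjusted p = 0.37). With a term for male embryos the value for Sox10 was -0.01. Among WT embryos, WT 1 was the highest for these 3 genes, at 1.77, 4.73 and 3.02 CPM.

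The remaining members differed less in Dnmt3a KO embryos. The log2 fold changes were 0.00 for Sox9 (SE 0.25), -0.23 for Foxd3 (SE 0.36), 0.13 for Tfap2a (SE 0.25), 0.24 for Ets1 (SE 0.13), -0.05 for Pax3 (SE 0.25) and 0.27 for Snai1 (SE 0.15). In the libraries labelled Dnmt3b KO the values ranged from -0.85 for Foxd3 (SE 0.42, adjusted p = 0.30) to 0.59 for Dlx2 (SE 0.42, adjusted p = 0.49). Foxd3 was at 2.97, 4.43, 4.39 and 0.814 CPM in the libraries 1, 2, 11 and 12, so that the library labelled Dnmt3b KO 12 was the low one, and without the libraries 11 and 12 the difference was -0.61. The same library was the lowest of its group in 8 of the 9 members, Ets1 being the exception. The share of all genes for which it was the lowest is not given here, so this count is not read as particular to the members. The standard errors above leave room for differences of a size that the test would not call.

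The share of neural crest-like cells was 1.96 ± 1.32% (n = 4) in Dnmt3a KO embryos and 1.03 ± 0.40% (n = 3) in those labelled Dnmt3b KO. Neither differed from WT by the exact permutation test (two-sided p = 0.99 and 0.44, adjusted 0.99 and 0.88), and 0.0% of the 21 classes passed in either. Without the libraries 11 and 12 the log2 ratio of the latter group was -0.38, against -0.39 with them. Dnmt3a KO 1, 13 and 14 had 2.11%, 2.19% and 3.36%, above every WT embryo, the highest of which had 1.85%, whereas Dnmt3a KO 2 had 0.165%, below every WT embryo. That library had 21 neural crest-like cells among 12716 and a median of 3683 UMIs per kept cell. Other classes of that library stood apart too. Its gut endoderm-like cells made up 0.527%, against 1.61% to 6.30% in WT embryos. Extraembryonic endoderm-like cells made up 37.5% of it, against 9.74% to 19.8% in WT embryos. The part of this in its neural crest-like share was not tested. Without Dnmt3a KO 2 the log2 ratio of the neural crest-like share to WT was 0.96 in place of -0.02, with an adjusted p of 0.53.

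Cells with 2 or more of the 4 transcripts were compared as well. After thinning, Dnmt3a KO embryos had 0.663 ± 0.443% (n = 4, exact permutation p = 0.38, adjusted 0.38), and without Dnmt3a KO 2 the log2 ratio to WT rose from 0.50 to 1.09 with an adjusted p of 0.038. Thinned to 6000 UMIs the log2 ratio was 0.76 (exact permutation p = 0.055, adjusted 0.082), and without thinning it was 0.10. The libraries labelled Dnmt3b KO had 0.262 ± 0.172% (n = 3, exact permutation p = 0.21, adjusted 0.31). Their log2 ratio was -0.78, and it was 0.15 without the libraries 11 and 12. Neural crest-like cells after thinning were also pooled over the libraries of each group. Of these cells 18.1% met the rule in WT, 22.6% in Dnmt3a KO and 16.6% in the libraries labelled Dnmt3b KO. The last share counts the libraries 1 and 2 apart. By library the shares ran from 10.96% to 23.87% in WT and from 9.524% to 27.14% in Dnmt3a KO embryos. In the libraries labelled Dnmt3b KO they ran from 5.128% to 23.26%. The ranges overlapped, and a difference between the groups was not tested.

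Within the neural crest-like class, 0 of 9 members were called by edgeR in Dnmt3a KO (0.0% of 10451 genes) or in the libraries labelled Dnmt3b KO (0.239%). At an unadjusted p of 0.05 there were 4 and 0 members, against 12.2% and 9.56% of all genes, and DESeq2 called 0 in each. Sox9 came closest, at 252.8, 206.9 and 209.9 CPM in Dnmt3a KO 1, 13 and 14 against 148.4 CPM in WT 1 and 320.8 to 761.8 CPM in WT 2, 3, 4, 6 and 7. Its log2 fold change was -1.13 (SE 0.35, adjusted p = 0.27), and without WT 1 it was called at -1.31 (adjusted p = 0.0052). Foxd3 had -0.81 (SE 0.33, adjusted p = 0.35) and Dlx2 1.28 (SE 0.59, adjusted p = 0.40). In the libraries labelled Dnmt3b KO the values ran from -0.69 for Sox9 to 0.37 for Snai1, and without the libraries 11 and 12 from -0.44 for Sox9 to 0.77 for Snai1. The library 12 was under every WT embryo in 4 of the 9 members, as it was in 20.1% of the 10451 genes tested, at 25.7 CPM of Tfap2a, 40.5 CPM of Ets1, 39.7 CPM of Tfap2b and 1.56 CPM of Dlx2, where the lowest WT embryos had 74.4, 102.9, 58.9 and 2.22 CPM. For Dlx2 this sets 39 cells of the library 12 against 13 cells of WT 5 at low levels, so the order is uncertain. In the library 12 Sox10, Sox9, Foxd3, Pax3 and Snai1 lay within the WT range. Its 39 neural crest-like cells had UMIs of 1.10 members on average after thinning, compared with 2.05 to 2.83 in WT embryos.

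Over the 17 classes in which these groups could be tested, 0 of 92 pairs of member and class were called in each (0.111% of all pairs in Dnmt3a KO and 0.659% in the libraries labelled Dnmt3b KO). At an unadjusted p under 0.05 there were 19 and 9 pairs, against 10.9% and 15.2% of all pairs, and DESeq2 called 0 in each. Without the libraries labelled Dnmt3b KO 11 and 12 that group again had 0 called. Pax3 in somitic mesoderm-like cells was at 69.5, 47.7, 37.6 and 15.03 CPM in the libraries labelled Dnmt3b KO 1, 2, 11 and 12, and WT embryos had 64.3 to 88.8 CPM (log2 fold change -0.96, SE 0.29, adjusted p = 0.12). Dnmt3a KO 2 was also low there, at 29.97 CPM, whereas Dnmt3a KO 14 had 98.4 CPM. Tfap2b in hindbrain or spinal cord neuroepithelium-like cells was at 4.20, 0.785, 9.54 and 7.63 CPM in Dnmt3a KO 1, 2, 13 and 14 against 1.16 to 3.99 CPM in WT embryos (log2 fold change 1.53, SE 0.40, adjusted p = 0.17). Without the libraries labelled Dnmt3b KO 1 and 2, 1 pair was called in that group, Ets1 in head mesenchyme-like cells (log2 fold change -1.48, adjusted p = 0.0048).

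The neural crest-like cells differed between WT embryos as well. WT 1 and WT 2, the high embryos for Dlx2, had Sox10 at 115.0 and 110.4 CPM, whereas WT 3, 4, 6 and 7 had 28.6 to 84.0 CPM. Sox9 and Foxd3 lay the other way, with 148.4 and 70.3 CPM in WT 1 and 761.8 and 323.5 CPM in WT 7. WT 1 was counted on the combined human and mouse reference and WT 2 is the male WT embryo, and the part of either in this was not tested.

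Across the 14 samples with at least 10 neural crest-like cells, log2(CPM + 1) of Sox9 and Foxd3 rose together (Pearson r = 0.943, permutation p = 1e-05, the smallest that 100000 permutations give, Spearman rho = 0.956, permutation p = 1e-05, both adjusted to 0.00036 over 36 pairs). The r was 0.914 without the 2 samples farthest from the median of Sox9, and 0.953 among the 7 WT embryos alone (exact permutation p = 0.0012, adjusted 0.043, and rho = 0.857 with an adjusted p of 0.53), where it was 0.841 without the 2 outer embryos. Of the 36 pairs 10 passed an adjusted p of 0.05 by Pearson's r, all of them positive, 7 passed by Spearman's rho and 6 by both. Among WT embryos alone 1 passed by r and 0 by rho. Sox10 and Dlx2 rose together, with r = 0.863 (permutation p = 8e-05, adjusted 0.0014), rho = 0.925 (permutation p = 2e-05, adjusted 0.00036) and 0.924 without the 2 outer samples. Among WT embryos alone this r was 0.771 (exact permutation p = 0.049, adjusted 0.26). The others included Foxd3 with Pax3 (r = 0.809), Dlx2 with Snai1 (0.805) and Sox10 with Tfap2b (0.804), which passed by both measures. Tfap2a with Ets1 (r = 0.883) did not pass by rho (0.609, permutation p = 0.023, adjusted 0.072). Its r was 0.688 without the 2 outer samples. Between the pairs, Sox9 and Dlx2 had r = -0.586 (permutation p = 0.030, adjusted 0.082) and rho = -0.56 (permutation p = 0.040, adjusted 0.10), and r was -0.469 without the outer samples. The negative relation did not pass the correction. The samples share genotype groups, and levels in CPM are shares of 1 total.

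**Figure D5:**
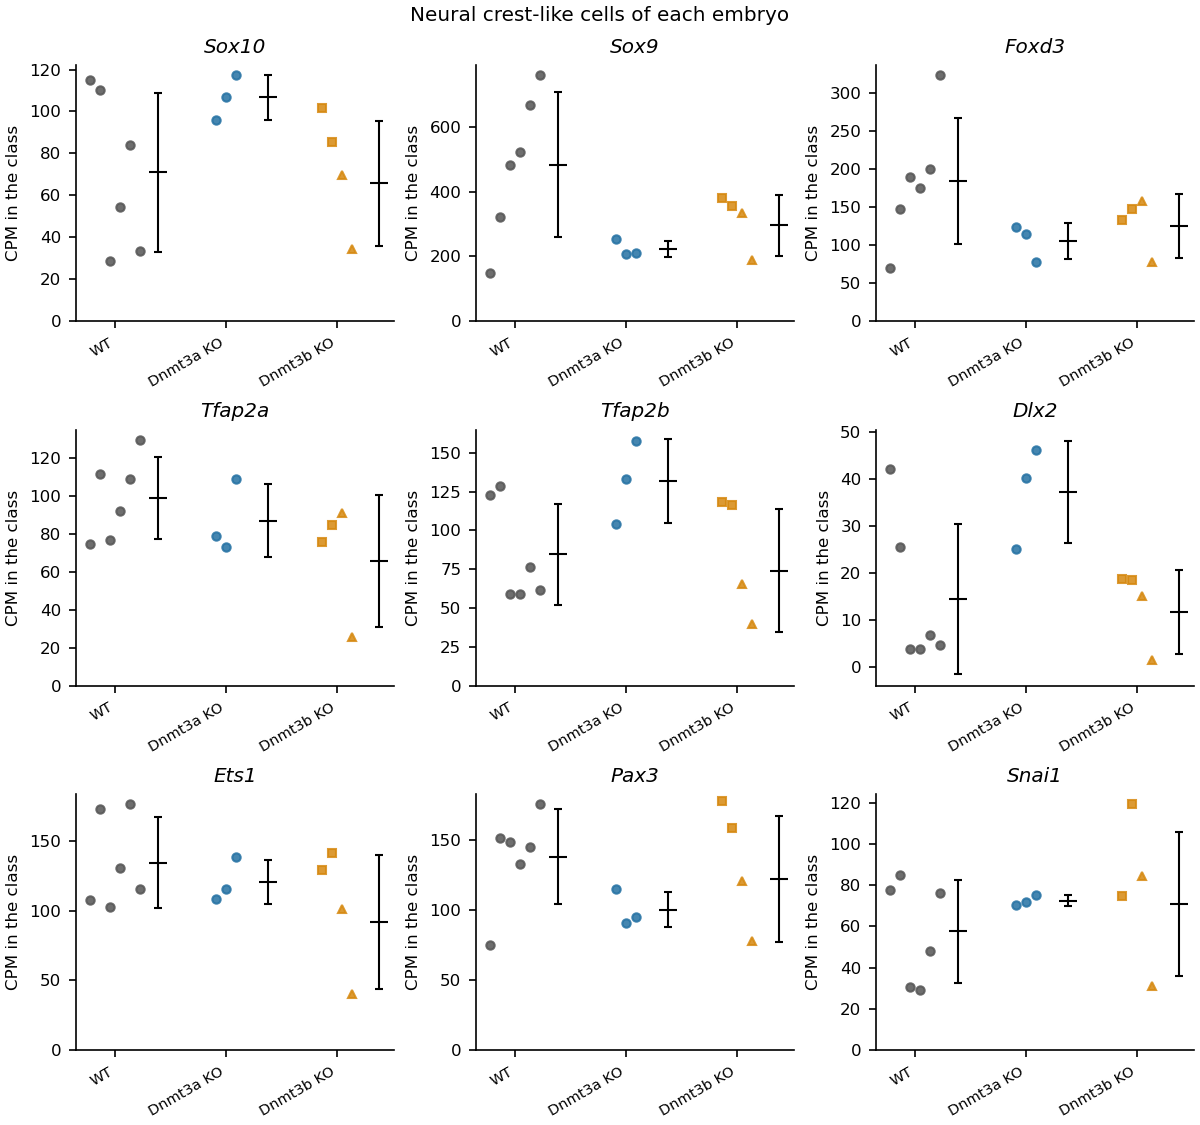
CPM of the 9 members within neural crest-like cells (vertical axes), for embryos with at least 25 such cells, with 1 point per library and the mean and SD beside each group. Squares are the libraries labelled Dnmt3b KO 1 and 2 and triangles those labelled Dnmt3b KO 11 and 12. WT 1 and 2 are the high points of Dlx2 at 42.2 and 25.5 CPM, and the library labelled Dnmt3b KO 12 is under every WT embryo for Tfap2a, Tfap2b, Dlx2 and Ets1.

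Finally, 54 other genes of the neural crest programme were examined in 5 lists. In Dnmt1 KO embryos 11 of the 54 fell, against 6.22% of all genes, and 1 rose, against 8.11%, with a median log2 fold change of -0.53 against 0.01 over all genes. Without Dnmt1 KO 3 the 12 called became 19. Of the 8 genes listed as signals of the neural plate border 4 fell over the whole embryo, with a list median of -1.28. They include Wnt1, which is made in the dorsal midline (-4.55, SE 0.56, adjusted p = 7.9e-06), Fgf8 (-2.09, SE 0.30, adjusted p = 3.5e-05) and the Notch ligand Dll1 (-1.79, SE 0.27, adjusted p = 6.1e-05). Fgf8 was also a marker of the neuromesodermal progenitor-like class, and Dll1 of the presomitic mesoderm-like class. These classes had mean shares of 0.124% and 0.0327% in Dnmt1 KO embryos, against 4.59% and 3.33% in WT embryos. The part of these shares in the levels was not tested, and no level at the neural plate border was measured. Of 10 border factors, Zic1 (-5.22, SE 0.79, adjusted p = 6.7e-05) and Pax7 (-1.88, SE 0.34, adjusted p = 0.00036) fell and Tfap2c rose (3.09, SE 0.39, adjusted p = 1.1e-05), with a median of -0.08. Tfap2c is a paralogue of Tfap2a that is also used in trophoblast. Extraembryonic ectoderm-like cells made up 4.51% to 30.9% of the kept cells in the Dnmt1 KO embryos, against 0% to 1.75% in WT embryos.

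Among 12 receptors and migration genes Ngfr (-2.48, SE 0.25, adjusted p = 8.3e-07), the chemokine receptor Cxcr4 (-1.81, SE 0.24, adjusted p = 2.1e-05) and the cadherin Cdh6 (-1.17, SE 0.25, adjusted p = 0.0013) fell, with a median of -0.45. Of 12 genes of crest derivatives 2 fell, among them the jaw factor Barx1 (-1.14, SE 0.30, adjusted p = 0.0061), with a median of -0.80. None of the 12 other specifiers was called, with a median of -0.53, though 9 had an unadjusted p under 0.05 by edgeR (46.0% of all genes did). They did not share 1 direction. Twist1 (-0.89, SE 0.20, adjusted p = 0.0019) missed the limit of 1. Sox8 was lower as well (-0.94, SE 0.29, adjusted p = 0.018), and Snai2 was higher (0.41, SE 0.14, adjusted p = 0.029). In Dnmt3a KO embryos and in the libraries labelled Dnmt3b KO 0 of the 54 were called by edgeR (0.259% and 1.9% of all genes were) and 0 by DESeq2, with 11 and 9 at an unadjusted p under 0.05, against 9.94% and 17.5% of all genes, and medians of 0.12 and -0.03. Without the libraries labelled Dnmt3b KO 11 and 12 the count was also 0.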

How the data were processed

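The authors deposited raw UMI counts per gene and barcode, with no normalisation. The file header of the library labelled Dnmt3b KO 12 names Cell Ranger 5.0.0, and the other libraries were recorded as 3.1.0. The paper names 5.0.0 for its droplet data. Counts were on mm10 or, in 4 libraries, on a combined human and mouse reference. These 4 were WT 1, Dnmt3a KO 1, Dnmt3a KO 13 and the library labelled Dnmt3b KO 11. Barcodes with at least 1500 mouse UMIs, at most 30% mitochondrial and 35% ribosomal UMIs were kept, and doublets (0.8% per 1000 cells) were removed by a neighbour score on simulated doublets. Cells were clustered (Leiden, resolution 2) without the members. UMIs were summed per embryo, or per class with at least 25 cells, and tested with edgeR 4.0.16 (TMM, quasi-likelihood, all 4 groups in 1 fit, SE from the F statistic) after filterByExpr. DESeq2 1.42.0 was an alternative. Shares were tested by exact two-sided permutation of log2((cells + 0.5)/kept cells). The edgeR step was tested on simulated data. Coordinates are those of GENCODE vM21 (GRCm38). Nothing beyond separate embryos is stated of replicates.

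The members and lists were chosen with earlier results of these data known. Named genes are the members, the 3 Dnmt genes, for each member the 3 genes most like it among those with at least 20 CPM in a WT class, and up to 3 called genes with the largest change per list and comparison. Some genes that this rule names are not reported here. Replicate numbers 1, 2 and 3 recur in several groups. Of 13 same-numbered pairs across groups 4 had deviations from the group means that correlated above 0.1 (range -0.34 to 0.36), so the numbers were not taken as pairs.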

Additional observations from a re-analysis of the deposited data

Results flagged for a closer look

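In 31 groups of 4 to 10 samples, 2 values lay far from the rest of their group, and chance flags about 1 group in 20. Dlx2 over the whole embryo was at 1.77 CPM in WT 1, whereas the other 6 WT embryos lay between 0.509 and 0.967 CPM. Foxd3 over the whole embryo was at 2.28 CPM in Dnmt3a KO 2, against 5.08 to 5.56 CPM in the other 3 Dnmt3a KO embryos. WT 1 was counted on the combined reference and had the most neural crest-like cells among WT embryos, 155, and Dnmt3a KO 2 had the fewest of its group, 21. The part of these in the values was not tested.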

How the results depend on the processing

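Here Dnmt3b KO stands for the libraries so labelled. Over the whole embryo Foxd3, Sox10, Tfap2b, Pax3 and Sox9 were called in Dnmt1 KO under every alternative run, and the count of members ranged from 5 to 7 when 1 library was left out. With the replicate numbers as a replicate block it was 6, and the block changed no other count of members. Pathway genes called in Dnmt1 KO numbered 8 with the replicate block and 10 to 19 when 1 library was left out, the 19 without Dnmt1 KO 3. Members called by class moved from 0 to 1 for Dnmt1 KO with DESeq2 and with no filter on low counts (Pax3 in gut endoderm-like cells), for Dnmt3a KO with no filter (Sox9 in neural crest-like cells) and for Dnmt3b KO without its libraries 1 and 2, and ranged from 0 to 1 without 1 library for Dnmt1 KO and for Dnmt3a KO.

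The log2 ratio of the neural crest-like share in Dnmt3a KO ranged from -0.48 to 0.96 when 1 library was left out. That of cells with 2 or more of the 4 transcripts lay between -4.08 and -3.57 in Dnmt1 KO. The Dnmt1 KO embryos had 0 such cells, so their side of the ratio was set by the 0.5 cells added and the cells counted. Leaving out a library could not change these counts of 0, so the range does not test them. In Dnmt3a KO the ratio lay between 0.094 and 1.09, where 1.09 passed without Dnmt3a KO 2. In Dnmt3b KO it was 0.15 without the libraries 11 and 12, an alternative chosen after seeing the data.

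The sign of members that were not called turned in several settings. For Dnmt3a KO, the replicate block gave -0.26 for Sox10, 0.31 for Foxd3, -0.41 for Tfap2b and -0.10 for Dlx2, and the term for males gave -0.0051 for Sox10, -0.065 for Ets1 and -0.20 for Snai1. Sox9, whose value there was 0.00, had -0.025 with DESeq2 size factors, -0.025 with the DESeq2 test, -0.015 with no filter, -0.019 with Dnmt3b KO 1 and 2 apart, -0.041 with the term for males, -0.012 with that for the combined reference, -0.0235 without Dnmt3b KO 11 and 12 and -0.024 without Dnmt3b KO 1 and 2. Leaving out 1 library gave -0.18 to 0.10 for Sox9, -0.17 to 0.30 for Tfap2a and -0.22 to 0.10 for Pax3. For Dnmt3b KO, the replicate block gave 0.15 for Sox9, 0.13 for Foxd3, 0.47 for Tfap2a and 0.17 for Pax3, the term for males gave -0.18 for Snai1, and leaving out libraries 11 and 12 gave 0.20 for Sox10, 0.047 for Tfap2a and 0.29 for Tfap2b. Leaving out 1 library gave -0.57 to 0.0685 for Sox10, -0.20 to 0.034 for Tfap2a, -0.28 to 0.014 for Tfap2b and -0.022 to 0.31 for Snai1. The cause of these turns was not tested. The values of Sox10, Foxd3 and Tfap2b in Dnmt1 KO rest on at most 4 UMIs of each per library.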
